A study of Mus musculus with 11 samples.

Results

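The 8 genes described here mark the cells that build limb muscle: Pax3, Pax7, Lbx1, Met, Msc, Myf5, Myod1 and Myog. They were taken by name from a table of RNA-seq read counts of mouse forelimb buds, which has 47517 rows. All 8 names were found, and all 8 were among the 15821 genes that passed the filter on low counts. The buds came from C57BL/6 embryos at E10.5, the embryonic day, and the title of the series asks how Geminin, the product of Gmnn, bears on Hox genes in limb patterning. Mutant embryos (6 libraries) were Gmnn f/f; Prx-Cre, with a pair of floxed alleles, and control embryos (5 libraries) were Gmnn +/f; Prx-Cre. Both groups thus carry the Prx-Cre transgene and at least 1 floxed allele, and buds without Cre were not analysed here. RNA was total RNA depleted of ribosomal RNA. The titles place the libraries in 4 litters, called A to D below. Controls 1 and 2 came from litter A, as did mutants 1 and 2. Litter B supplied control 3 with mutant 6, litter C supplied control 4 with mutant 5, and control 5 shared litter D with mutants 3 and 4.

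Limb muscle does not arise in the limb. Its precursors leave the dermomyotome, the outer layer of the somites beside the neural tube, and migrate into the bud, where they divide and later differentiate. Pax3 specifies them, Lbx1 and the receptor Met are needed for their migration, and the basic helix-loop-helix factors Myf5, Myod1 and Myog then commit them to muscle and drive its differentiation. Prx-Cre acts in the mesenchyme of the bud, which comes from lateral plate mesoderm, so that these precursors lie outside the tissue in which the floxed allele is removed.

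Total counts ran from 14721181 to 19733288 per library, and levels are given as CPM, the usual read count scaled to library size, here on totals adjusted by the TMM method. On that scale 1 read was worth 0.0515 to 0.0701 CPM. Gmnn itself stood at 179.6 ± 40.2 CPM in the 5 controls and 115.3 ± 16.1 CPM in the 6 mutants (mean ± SD), with no overlap between the groups. Limb mesenchyme markers were abundant in every library (summed level of 7 genes 686.7 to 918.5 CPM in controls and 694.8 to 799.1 CPM in mutants). Some libraries stood apart in markers of other tissues. Control 2 had 112.1 CPM in 6 heart muscle markers where the other controls had 1.80 to 11.2, control 5 had 70.0 CPM in 8 somite markers where the others had 24.3 to 40.3, and mutant 2 had the highest sum of red blood cell markers. Of the 11 neural tube markers only Tubb3 passed the filter, and Olig2 and Olig3 had no read in any library.

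None of the 8 genes passed the test between genotypes (quasi-likelihood F test of edgeR blocked by litter, Benjamini-Hochberg adjusted p under 0.05), where 345 of all genes tested did (2.18%). DESeq2 called 1 of the 8 (Lbx1) and limma-voom called 0. At an unadjusted p under 0.05 there were 4 of the 8, where 21.4% of all genes tested had one. These 4 were Lbx1, which was higher in mutants, and Myf5, Myod1 and Myog, which were lower. Myod1 passed the filter on low counts through its control libraries, as Pax7 did, so the filter favoured a lower mutant level in both, and the counts and medians over the 8 genes are given only as a description. In no member were the groups free of overlap in CPM, against 2.59% of all genes (1.29% with mutants higher). The median of the absolute log2 fold change was 0.99 over the members and 0.18 over all genes tested, and the medians of the signed values were -0.42 and 0.00. Pax7, Myod1 and Msc had few reads and wide standard errors (0.88, 0.82 and 0.45), so the absolute medians are not a like comparison. In whole buds, fewer cells of a type and less RNA per cell cannot be told apart.

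**Figure D1:**
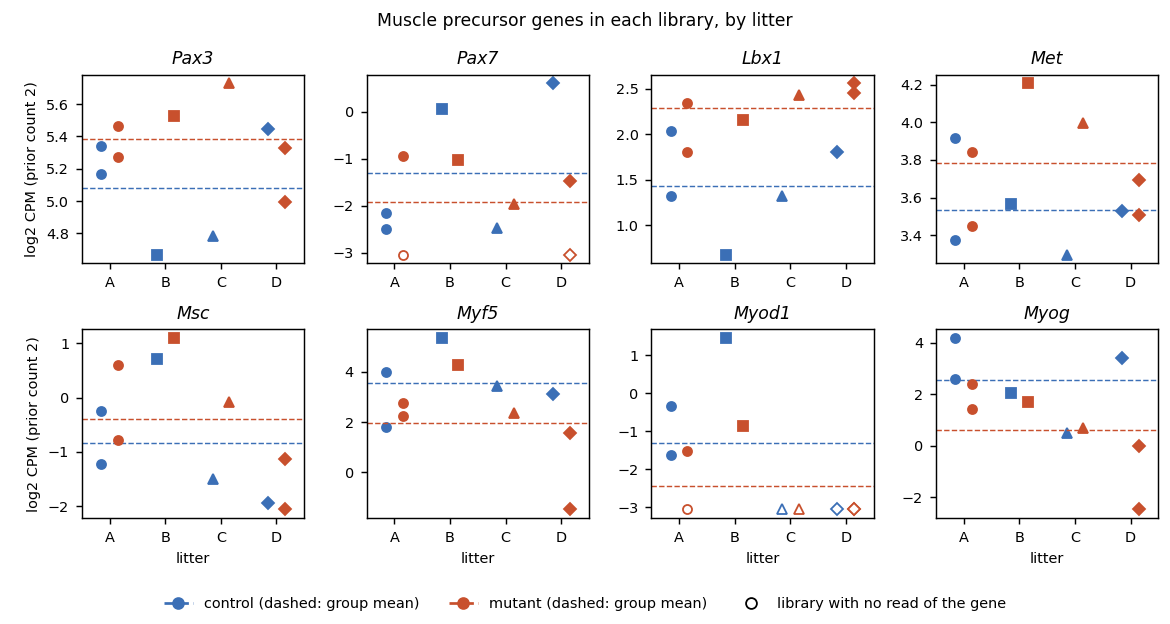
Level of each gene in each of the 11 libraries as log2 CPM with a prior count of 2, by litter, with controls in blue and mutants in orange, dashed lines at the group means and open symbols where a library had no read. By litter means Lbx1 was higher and Myf5 lower in mutants of all 4 litters, and Myod1 had no read in 6 libraries.

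Pax3 (chr1:78101267-78197134, minus strand of mm10), the paired-box factor that specifies the precursors, was the most abundant member by reads. It stood at 40.4, 35.8, 25.3, 27.5 and 43.5 CPM in controls 1 to 5, and at 31.8 (lowest), 42.0 (median) and 52.9 CPM (highest) in mutants. Controls 3 and 4 were the lowest libraries, and the groups otherwise overlapped. The log2 fold change, mutant over control, was 0.30 (SE 0.16, 95% interval -0.05 to 0.65, edgeR adjusted p 0.307). It was 0.86 and 0.94 in litters B and C, 0.11 in litter A and -0.29 in litter D, so that the direction was shared by 3 of 4 litters. Pax3 is not confined to muscle precursors, since dorsal neural tube and neural crest also express it. The 7 neural crest and Schwann precursor markers summed to 32.8 to 71.9 CPM in controls and 16.8 to 50.7 CPM in mutants, with Foxd3 at 4 reads over all libraries. Their part in the Pax3 values was not tested.

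Pax7 (chr4:139737062-139833528, minus strand of mm10), the close relative of Pax3 that later marks muscle stem cells, was nearly absent. Its 59 reads were spread over 9 libraries. Controls 1 to 5 had 1, 2, 17, 1 and 20 reads, and mutants had 0 to 6 with a median of 3. Controls 3 and 5 held most of the reads of their group, and it was through them that Pax7 passed the filter. The fitted log2 fold change of -1.12 had an interval from -3.04 to 0.80 (edgeR adjusted p 0.503), and the litters were split, with 2 higher and 2 lower. No difference was detectable at this depth. A library with no read has a limit of 0.154 to 0.210 CPM (3 reads, counting error only).

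Lbx1 (chr19:45232684-45235812, minus strand of mm10), the homeobox factor of precursors that migrate, came nearest to the threshold. Controls 1 to 5 stood at 3.97, 2.37, 1.47, 2.38 and 3.36 CPM, and mutants at 3.37 (lowest), 5.12 (median) and 5.78 CPM (highest). Mutant 2 lay below control 1, and the other 5 mutants lay above every control. Group means were 2.71 ± 0.971 CPM (control, SD, n = 5) and 4.85 ± 0.862 CPM (mutant, SD, n = 6). The fitted difference was 0.82 on the log2 scale (SE 0.23, 95% interval 0.33 to 1.31), which is 1.77-fold, with an edgeR adjusted p of 0.0696. Mutants were higher in 4 of 4 litters, by 0.40, 1.49, 1.10 and 0.71 in litters A to D, a steadiness of direction that 26% of all genes tested showed. Lbx1 passed the threshold in DESeq2 (log2 fold change 0.82, adjusted p 0.0167) and in edgeR without the filter on low counts (adjusted p 0.00502), and did not in the other alternatives. Its fold change stayed between 0.67 and 1.01 when 1 library was left out.

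Met (chr6:17463800-17573980, plus strand of mm10) encodes the receptor that lets the precursors detach and migrate, and Hgf encodes its ligand, which limb mesenchyme secretes. Met stood at 14.99, 10.2, 11.7, 9.70 and 11.4 CPM in controls 1 to 5 and at 10.8, 13.5 and 18.3 CPM (lowest, median and highest) in mutants. The groups overlapped over most of their range. The log2 fold change was 0.27 (SE 0.16, 95% interval -0.07 to 0.61, edgeR adjusted p 0.344). Litters B and C gave 0.64 and 0.70, while litters A and D gave -0.00067 and 0.07. Hgf stood at 19.1 ± 6.74 CPM (control, SD, n = 5) and 19.5 ± 5.85 CPM (mutant, SD, n = 6). Its log2 fold change was -0.06 (SE 0.12, 95% interval -0.31 to 0.20).

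Msc (chr1:14753346-14755992, minus strand of mm10) encodes musculin, a basic helix-loop-helix repressor found in early muscle precursors. It was rare, with 13, 6, 28, 4 and 2 reads in controls 1 to 5 and 2 to 33 reads (median 9.5) in mutants. The highest library of each genotype came from litter B, control 3 at 1.53 CPM and mutant 6 at 2.02 CPM. The log2 fold change was 0.86 (SE 0.45, 95% interval -0.12 to 1.84, edgeR adjusted p 0.296), and mutants were higher in 4 of 4 litters. Of the exon bases of Msc, 21.2% also lie in Gm9947 on the other strand. Counting took no account of strand, so the level of Msc is uncertain.

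Myf5 (chr10:107482908-107486134, minus strand of mm10) is the first of the myogenic factors to appear in the somite and in the limb. It stood at 15.8, 3.40, 40.6, 10.6 and 8.55 CPM in controls 1 to 5, and at 0.238 (lowest), 4.84 (median) and 19.3 CPM (highest) in mutants. Control 3 held 53.3% of the reads of its group and mutant 6 held 50.6%, and both are from litter B. The lowest library, mutant 4 of litter D, had 4 reads of Myf5. The fitted log2 fold change was -1.25 (SE 0.43, 95% interval -2.20 to -0.31), or 0.420 of the control level, with an edgeR adjusted p of 0.130. By litter means mutants were lower in 4 of 4 litters, by -0.39, -1.07, -1.05 and -3.08 in litters A to D. Of all genes tested, 26% kept 1 direction in this way. In litter A, mutants 1 and 2 (6.71 and 4.63 CPM) lay between controls 1 and 2. Without control 5, which leaves litter D with no control, the fold change was -0.91 (edgeR adjusted p 0.264).

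Transcripts of Myf5 hold a run of 22 T bases, the longest among the members, where the next was 11 bases in Pax7. The 959 tested genes with a run of 18 or more had a median log2 fold change of -0.20, against 0.00 over all genes. As a library index, the level of these genes relative to all was 1.17 to 1.36 on the log2 scale in controls and 0.961 to 1.25 in mutants. Within each litter, every control had a higher index than every mutant. With that index as a covariate Myf5 had -1.06 (edgeR adjusted p 0.674). Because the index runs with genotype once litter is blocked, this fit cannot tell the index and genotype apart.

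Myod1 (chr7:46376474-46379092, plus strand of mm10), the factor best known for turning other cells into muscle, was detected in few buds. Controls 1 to 3 had 12, 4 and 48 reads, and mutants 1 and 6 had 4 and 7. The other 6 libraries had none, among them all 5 of litters C and D. A log2 fold change of -2.10 (SE 0.82, 95% interval -3.96 to -0.24, edgeR adjusted p 0.189) therefore rested on litters A and B, where mutants were lower in both. Myod1 passed the filter through its control libraries, and the group totals were 64 and 11 reads. Once the T-run index entered the model its fold change turned to 2.81 (edgeR adjusted p 0.655). The index separates the genotypes within every litter, and the longest T run of Myod1 itself is 7 bases. The cause of the turn was not tested.

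Myog (chr1:134289989-134292548, plus strand of mm10) encodes myogenin, which drives differentiation into muscle fibres. It stood at 18.1, 5.87, 4.03, 1.28 and 10.4 CPM in controls 1 to 5, and at 0.0595 (lowest), 2.04 (median) and 5.09 CPM (highest) in mutants. Controls 1, 2 and 5 lay above every mutant, and controls 3 and 4 lay within the mutant range. The log2 fold change was -1.76 (SE 0.58, 95% interval -3.03 to -0.49), or 0.295 of the control level, with an edgeR adjusted p of 0.117. The litters differed widely, with -1.48, -0.35, 0.22 and -4.63 in litters A to D. In litter D, control 5 had 148 reads where mutants 3 and 4 had 13 and 1. Without control 5, which leaves litter D with no control, the fold change was -0.97 (edgeR adjusted p 0.276).

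The 250 bases upstream of the RefSeq starts of Myog and of Myf5 are shown. These were the better counted of the 3 members with lower mutant levels and an unadjusted p under 0.05. RefSeq sequence on GRCm38.p6 was matched for 4 of the 8 members (Met, Myf5, Myog and Pax7). The window is chr1:134289754-134290003 on the plus strand for Myog and chr10:107486135-107486384 on the minus strand for Myf5. Capitals mark matches to the E-box (CANNTG), the letters that myogenic helix-loop-helix factors bind, and to the MEF3 site (TCAGGTTTC), a motif known from muscle gene promoters, searched on both strands with no overlap between them.
Myog: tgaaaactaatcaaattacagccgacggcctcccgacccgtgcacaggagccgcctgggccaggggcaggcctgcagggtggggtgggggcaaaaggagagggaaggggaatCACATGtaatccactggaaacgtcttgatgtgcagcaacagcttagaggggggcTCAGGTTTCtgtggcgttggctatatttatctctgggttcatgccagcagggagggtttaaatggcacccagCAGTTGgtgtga
Myf5: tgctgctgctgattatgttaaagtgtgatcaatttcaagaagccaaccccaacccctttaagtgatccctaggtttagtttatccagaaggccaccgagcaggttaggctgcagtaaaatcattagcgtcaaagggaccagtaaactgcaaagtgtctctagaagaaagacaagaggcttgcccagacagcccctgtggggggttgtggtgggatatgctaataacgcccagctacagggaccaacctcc
The Myog window held 2 E-boxes, CACATG at 138 to 133 and CAGTTG at 12 to 7 bases upstream of the RefSeq start, and 1 MEF3 site at 84 to 76. The Myf5 and Pax7 windows held no match to either, and the Met window held 1 E-box. Some RefSeq starts lie inside the gene spans given above. The Pax7 window (chr4:139832969-139833218) lay wholly within the span of Pax7. The Met (chr6:17463707-17463956) and Myog windows reached into their gene spans, and the Met E-box and the Myog CAGTTG lay inside them. Of 32851 windows of this length, 66.2% held an E-box and 0.387% a MEF3 site. As the MEF3 motif is known from muscle gene promoters, its match in Myog is a description and was not tested.

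**Figure D2:**
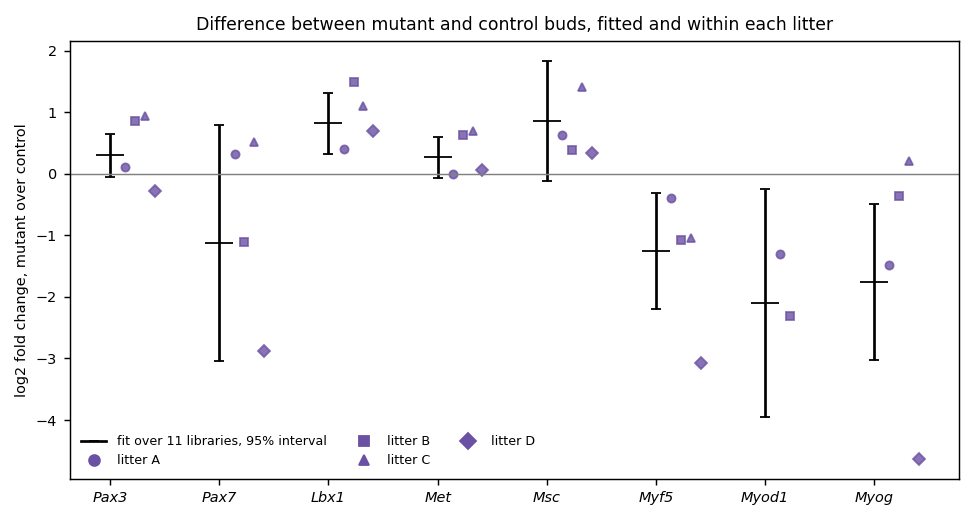
Log2 fold change of mutants over controls for each gene, with the edgeR estimate and its 95% interval in black and the difference within each litter in purple (litters with no read of the gene are left out). The intervals of Lbx1, Myf5, Myod1 and Myog lie to 1 side of 0, and none passed after adjustment. Litter D gave the lowest values for Pax3, Pax7, Msc, Myf5 and Myog.

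Whether litters differed was tested in the same model. Msc (p 0.00269), Myf5 (p 0.00266) and Myod1 (p 0.00159) had unadjusted p-values under 0.05 in edgeR, 3 of the 8 members where 13.5% of all genes had one. Their adjusted p-values were 0.152, 0.152 and 0.136, so that none passed (0.0885% of all genes did). In all 3 genes litter B held the highest library of each genotype. A difference of the genotype effect between litters was likewise called in no member, with an adjusted p of 0.950 or more throughout. Pax3 (p 0.00506) and Myog (p 0.0311) had unadjusted values under 0.05 in edgeR, against 3.82% of all genes, on 3 residual degrees of freedom. At an adjusted threshold, the same test called 0 of all genes (0%).

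Per kilobase of exon, a scale on which genes can be compared, Myf5 ranked highest in controls at 7.58 ± 6.997 CPM per kb (SD, n = 5). It was followed by Pax3 (5.58 ± 1.28), Myog (5.30 ± 4.39), Met (1.51 ± 0.268) and Lbx1 (1.09 ± 0.391), with Myod1, Msc and Pax7 at 0.377, 0.231 and 0.0869. Myf5 was above Pax3 in only 3 of 5 controls and Pax3 above Myog in 4 of 5, while Met was above Lbx1 in 5 of 5. In mutants Pax3 ranked highest at 6.82 ± 1.16 CPM per kb (SD, n = 6), above Myf5 (3.10 ± 3.19) in 5 of 6 libraries. Lbx1 (1.95 ± 0.347) and Met (1.81 ± 0.376) came next and changed places between libraries, and Myog (1.48 ± 1.20) stood below Met in 4 of 6. The ranges of neighbours in either order overlapped throughout.

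Ratios within a library do not depend on how the library was scaled. The level of Lbx1 per kb over that of Pax3 was 0.145 to 0.245 (median 0.193) in controls and 0.218 to 0.419 (median 0.265) in mutants, with mutants 3 and 4 of litter D highest. Met over Pax3 was 0.211 to 0.373 in controls and 0.225 to 0.322 in mutants, a narrower spread with full overlap. Myf5 over Lbx1 was 1.71 to 32.9 (median 4.74) in controls and 0.0530 to 5.27 (median 1.38) in mutants. Myog over Lbx1 was 0.892 to 7.56 (median 4.55) in controls and 0.0185 to 1.70 (median 0.834) in mutants, where control 4 alone among controls lay within the mutant range. In summed CPM, the genes of specification and migration (Pax3, Lbx1 and Met) came to 38.5 to 59.4 in controls and 48.4 to 74.0 in mutants. Myf5, Myod1 and Myog together came to 9.47 to 47.3 in controls and 0.297 to 22.8 in mutants. These ratios and sums were formed with the fold changes known and are given without a test.

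**Figure D3:**
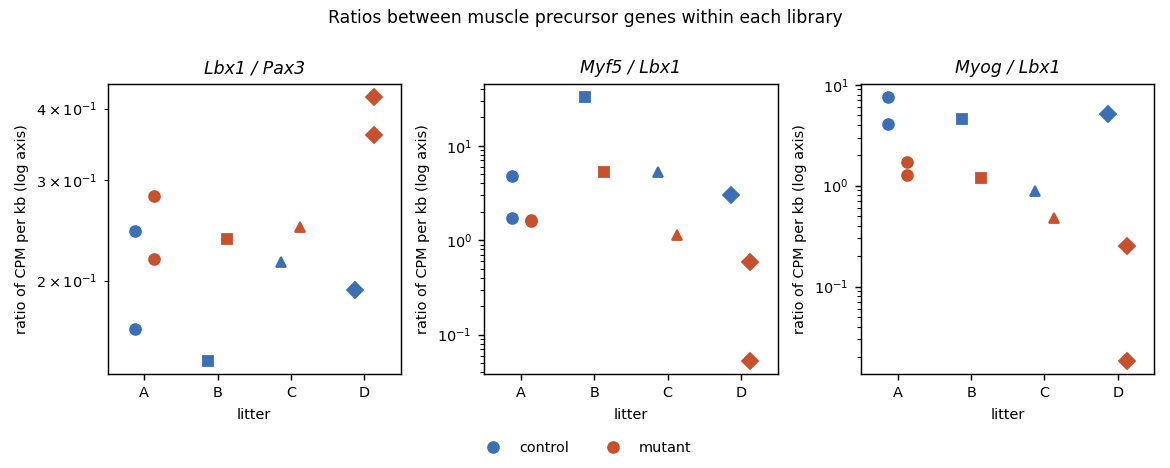
Ratio of CPM per kb between pairs of members in each library, on log axes, by litter, with controls in blue and mutants in orange. Myog over Lbx1 ranged from 0.892 to 7.56 in controls and from 0.0185 to 1.70 in mutants, and the lowest value of each ratio to Lbx1 was in mutant 4 of litter D.

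Genes of the somitic origin and migration of muscle precursors made up a list of 18, all tested. None passed the threshold in edgeR, and 1 did in DESeq2 and in limma-voom. At an unadjusted p under 0.05 there were 3 of the 18, among them Epha7 and Dmrt2, all lower in mutants, where 21.4% of all genes tested had such a p. That count is no higher than the background. The list had a median log2 fold change of -0.25, against 0.00 over all genes. Highly placed by level per kb were the homeobox genes Meox2 (14.2 ± 8.62 CPM per kb in controls and 13.2 ± 5.04 in mutants) and Meox1 (11.8 ± 6.60 and 9.32 ± 1.46), both of somites, and the ephrin receptor gene Epha7 (5.17 ± 0.784 and 3.44 ± 0.877), as mean ± SD with n = 5 and 6. Epha7 lay nearest to the threshold, at -0.59 on the log2 scale (SE 0.14; adjusted p 0.0530 in edgeR), lower in 4 of 4 litters. It passed in 8 of the 24 alternatives and turned to 0.079 with the T-run index. Its control mean was 51.1 CPM, where that of Pax3 was 34.5 CPM. Whole buds do not show which cells the Epha7 reads came from. The chemokine receptor gene Cxcr4 and its ligand gene Cxcl12, which guide precursors, had edgeR adjusted p-values of 0.834 and 0.441.

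Dmrt2, a factor of the dermomyotome, was at 6.04, 0.669, 5.23, 1.10 and 11.3 CPM in controls 1 to 5 and at 0.0595 (lowest), 1.11 (median) and 2.94 CPM (highest) in mutants. Its log2 fold change was -1.98 (SE 0.70, edgeR adjusted p 0.138), and controls 1, 3 and 5 lay above every mutant. Without control 5 it was -0.98 (edgeR adjusted p 0.372). Dmrt2 belongs to the 8 somite markers, of which 5 passed the filter and none the threshold. They summed to 24.3 to 70.0 CPM in controls and to 25.1 to 30.9 CPM in mutants. In Uncx and Nkx3-2 there were 18 and 8 reads in all. The highest sum was in control 5, the library with the second highest Myog, and Meox1 alone gave 51.9 CPM of it. Control 1, with the highest Myog, had a sum of 34.3 CPM. The part of somite tissue in the Myf5 and Myog values was not tested.

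Genes of muscle differentiation included several that were lower in mutants. Of 27 names, 2 of which (Mymk and Mymx) the table gives under older names, 20 were tested. There were 4 that fell (Tmem8c, Acta1, Actc1 and Myl1) and 1 that rose (Chrna1) at the edgeR threshold, against 1.48% and 0.702% of all genes in these directions, and the median log2 fold change was -0.95. Markers of some other cells also lay to 1 side. Red blood cell genes were higher in 7 of 7 (median 0.59) and macrophage genes in 6 of 6 (median 0.83). Neural crest and Schwann precursor genes were lower in 5 of 5 tested (median -0.42). None of these one-sided markers passed the threshold. Other lists were split: limb mesenchyme (4 higher, 3 lower), surface ectoderm (3 and 4), endothelium (2 and 3), somite (2 and 3) and heart muscle (1 and 1). Among them 1 limb mesenchyme gene passed the edgeR threshold, lower in mutants. The part of other cells in the muscle values was not tested. The differentiation calls were fragile: 0 of the list passed without the litter block, and 0 to 2 passed in edgeR when any 1 library was left out. Tmem8c, the gene of the fusion protein myomaker, had 15, 6, 4, 0 and 30 reads in controls 1 to 5 and 0 to 4 in mutants (log2 fold change -3.91, SE 0.85, edgeR adjusted p 0.0468). It passed the filter on low counts only through its control libraries, and the threshold in none of the 9 fits without 1 library that kept it. Acta1, with 3 to 8 reads in mutants, also passed the filter through controls, as did some list genes not past the threshold. Myl1, with 1 to 11 reads in mutants and 7 to 78 in controls, passed it mainly through controls. Passing through controls favours a lower mutant level, so the count and median of the list are a description of the genes tested. Of the contractile genes, Acta1, Actc1 and Myl1 had log2 fold changes of -3.78, -2.59 and -2.66 (edgeR adjusted p 0.0353, 0.0464 and 0.0452). These falls were unequal between litters and largest in litters A and D. In litters A to D, Acta1 had -2.26, -0.86, -0.71 and -5.88. Actc1 had -3.27, 0.26, -0.04 and -3.96, and Myl1 had -3.25, -0.34, -0.42 and -3.48. Control 5 held 73.7% of the control reads of Acta1. Control 2, which also had 107.3 CPM of the heart gene Myl7, held 49.5% of those of Actc1, an actin gene that heart muscle shares. Without control 5 the 3 genes had -2.07, -1.91 and -2.12 and none passed in edgeR (adjusted p 0.0611, 0.106 and 0.104). By mean level per kb over both groups the highest were Tnni1 (15.4 ± 14.8 and 11.6 ± 5.56 CPM per kb in controls and mutants), Actc1, Des and Tnnt3, an order that did not hold within each group. Control 2, the library with the most heart muscle markers, also held 56.9% of the control reads of Tnni1.

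Chrna1, the gene of the alpha subunit of the muscle acetylcholine receptor, moved the other way. It stood at 5.31, 2.06, 3.82, 3.37 and 3.57 CPM in controls 1 to 5, and at 5.44 (lowest), 8.05 (median) and 16.9 CPM (highest) in mutants. The groups did not overlap, though mutant 3 and control 1 nearly met. The log2 fold change was 1.41 (SE 0.26, edgeR adjusted p 0.0390), or 2.66-fold, with mutants higher in 4 of 4 litters. In the alternatives its value stayed between 0.92 and 1.59, and the call held in 10 of 24. It did not hold without the litter block (edgeR adjusted p 0.0559), and leaving out 1 library at a time gave edgeR adjusted p-values from 0.0235 to 0.179.

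**Figure D4:**
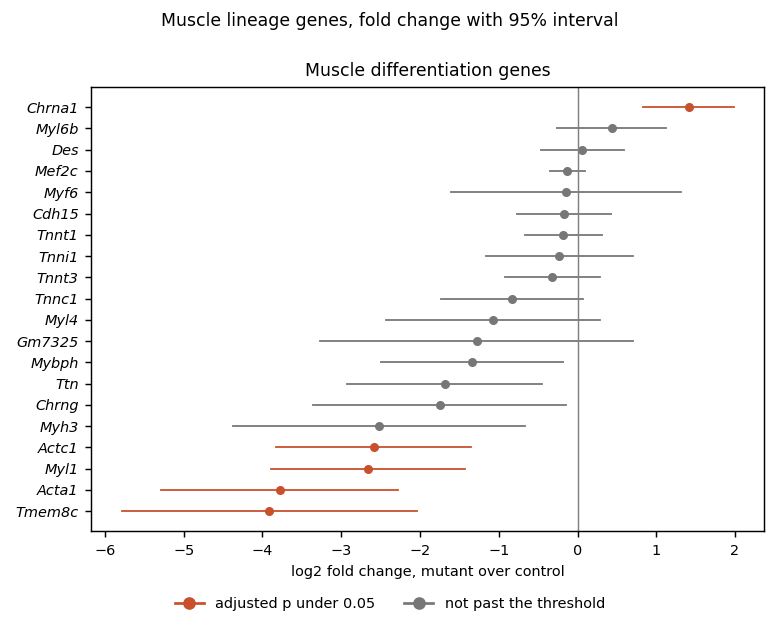
Log2 fold change with 95% interval from edgeR for the 20 tested genes of muscle differentiation, with genes past the adjusted threshold in orange. Of these genes 17 lie below 0 and 3 above, where 50.7% of all genes tested lie above, and Chrna1 is the only gene past the threshold above 0. Some of the genes passed the filter on low counts through their control libraries, which favours values below 0, so these counts are a description.

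Genes whose levels followed a member most closely across the 11 libraries were sought among 11981 genes of at least 1 CPM on average. For Myf5 the nearest was Mybpc1, a myosin-binding protein gene of skeletal muscle (Pearson r of log2 CPM 0.94), before Sh3bgrl2 (0.90), Spock3 (0.89), Lrig1 (0.89) and Snx32 (0.88). For Lbx1 they were Hspg2 (0.97), E2f4 (0.97), Bri3bp (0.93), Cyp27a1 (0.93) and Ppm1g (0.92), none of them a muscle gene by name. For Myog they were Tob2 (0.92), Mttp (0.90), Rgs3 (0.87), Cd2bp2 (0.87) and Tapbp (0.86). These are descriptions without a test, since 11 libraries were set against many genes that share litter, depth and genotype.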

How the data were processed

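Per the file headers and the submitters' processing notes, the authors aligned reads with STAR 2.5.4b to mm10 and counted them per gene with featureCounts v1.4.6-p4 on GENCODE vM9, with a mapping quality of at least 10 and no strand option, and deposited raw read counts. The header names 12 alignment files and the table holds 11 sample columns, all used here. The design text speaks of matched pairs and batch correction, and the labels name litters but no pairs, so litter was the block.

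In R 4.3.3, edgeR 4.0.16 (TMM, filterByExpr, quasi-likelihood F test, two-sided, litter plus genotype) tested 15821 genes holding 99.9% of counts, with Benjamini-Hochberg adjustment over all of them. Standard errors were derived from the fold change and F. Log2 CPM used a prior count of 2. The model was tested on simulated counts. Limma 3.58.1 (voom) and DESeq2 1.42.0 were alternatives. The biological coefficient of variation was 16.26%. No 2 libraries of a genotype agreed within counting noise (lowest chi-square per degree of freedom 7.385). Deviations from genotype means correlated at a median of 0.13 (-0.16 to 0.37) over 8 same-litter pairs from different genotypes and -0.02 over 22 other pairs.

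Members and gene lists were chosen with earlier results of these data known. Genes named were all members, list genes past the threshold or of the 4 highest levels per kb, and the 5 genes most like Lbx1, Myf5 and Myog. Some genes of the lists are counted in them and not reported here by name. Hgf, Cxcr4, Cxcl12 and Dmrt2 were named outside that rule after their values were seen. Intervals on single counts cover counting error only.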

Additional observations from a re-analysis of the deposited data

Results flagged for a closer look

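The highest or lowest library of a group lay far from its neighbours in 5 of 128 comparisons over 64 groups, where chance alone flags about 3.2. The only gene among them was Tmem8c, at -1.36 log2 CPM in mutant 3, which had 4 reads where the next mutant had 1. The other 4 were sums of markers of other tissues. Control 2 had 112.1 CPM of heart muscle markers. Control 4 had 59.37 CPM of neural tube markers, of which Tubb3 alone gave 58.9 CPM. Mutant 2 had 100 CPM of endothelial markers, the lowest of its group, and 56550 CPM of red blood cell markers, the highest. No muscle precursor gene had such a library.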

How the results depend on the processing

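Of 182 fold changes of the 8 members over 24 alternatives, 181 kept their direction and 177 also their side of the threshold. Adding the T-run index to the model turned Myod1 to 2.81 and the list gene Epha7 to 0.079, and the cause was not tested. Within every litter the controls had the higher index, so fits with it cannot tell the index and genotype apart. Members past the threshold numbered 3 without the filter on low counts (Lbx1, Myf5 and Myog) and 1 in DESeq2 (Lbx1), and 0 to 0 with 1 library left out. Without the filter, edgeR adjusted p-values were 3.98e-14 for Myf5 and 3.17e-15 for Myog, against 0.130 and 0.117 with it. Their fold changes hardly moved (-1.26 and -1.76 without it), so the calls of that fit depend on the filter itself. DESeq2 gave no adjusted p for Msc, Myod1 and Pax7. Litter differences passed in 4 members without the filter and 1 in DESeq2, and litter-by-genotype differences in 3 without the filter. With no replicate block no member passed. Over all genes, calls numbered 1566 without the filter, 550 at 1 CPM in 5 libraries, 1194 in DESeq2, 13 without the block, and 9, 3, 1 and 148 without litters A, B, C and D. They numbered 1 with the T-run index and 1 to 850 with 1 library left out (1 without control 4 or mutant 5, 850 without control 5). Leaving out control 2 and control 5 together was chosen after seeing the data and gave 0 members, with Lbx1 at 0.79 and Myf5 at -1.23. Pax7 and Myod1 fell below the filter in some fits. Leaving out the only control or mutant of a litter removes that litter from the comparison. Depth limits Pax7, Myod1 and Msc, which had 59, 75 and 136 reads in all.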
